A study of Mus musculus with 6 samples.

Results

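The genes described here mark the B lymphocyte lineage and its precursors: Cd79a, Cd79b, Vpreb1, Vpreb3, Igll1, Ebf1, Pax5, Ms4a1 and Rag1. They were chosen by name, and all 9 are among the 17382 genes of the deposited table. All 9 also passed the filter on low values, which kept 13722 genes. They were followed in 6 RNA libraries of myeloid cells grown from the bone marrow of C57BL/6 mice at an age of 2 months. Filtered marrow (40 µm strainer) was kept for 3 days in 40 ng/mL mouse M-CSF, the growth factor of macrophages, with 10% serum. The labels give no sort or depletion of other cells. In all 6 libraries both PD-L1 alleles carry flox sites. The 3 libraries labelled knockout also carry lysozyme-Cre, a recombinase that the lysozyme promoter drives in myeloid cells, and the 3 wild-type libraries come from littermates without it. In what follows, knockout 1 to 3 and wild type 1 to 3 are short names for the libraries with those labels. The design text calls them biological triplicates, but it does not say how many mice gave each culture.

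B lymphocytes arise in the marrow through pro-B and pre-B stages. Ebf1 and Pax5 are the transcription factors that specify and then fix the lineage, and Rag1 is the recombinase subunit that cuts immunoglobulin genes. Vpreb1 and Igll1 encode the surrogate light chain, which pairs with the first heavy chain in the pre-B cell receptor. Vpreb3 encodes a related protein of precursor B cells that binds heavy chains, Cd79a and Cd79b encode the signalling pair of the receptor, and Ms4a1 encodes the surface protein CD20, carried from late precursors to mature B cells. In mice these precursors depend on interleukin 7 and marrow stroma, neither of which is named in the culture protocol.

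Macrophage transcripts were abundant in the cultures, and so were neutrophil transcripts. Of the macrophage list, Lyz2 (lysozyme) had a mean of 24374 TPM and Cd68 a mean of 2196 TPM over the 6 libraries. Of the neutrophil list, S100a9 had a mean of 3605 TPM and S100a8 a mean of 2218 TPM. Here TPM is reads per gene length scaled to a common total. Depth, recovered as whole reads, ran from 52355659 to 77318131 reads per library. Lyz2 had 19101, 19354 and 13232 TPM in knockout 1 to 3 and 26707, 27493 and 40358 TPM in wild type 1 to 3, without overlap. Cd274, which encodes PD-L1, had 19.3, 19.2 and 29.2 TPM in knockout 1 to 3 and 17.9, 15.5 and 23.7 TPM in wild type 1 to 3. The targeted transcript, Cd274, therefore does not bear out the labels at the level of the whole gene. Lyz2, whose promoter drives the Cre, did differ between the labels. The authors' likelihood ratio test gives Lyz2 an adjusted p of 0.0345, while limma, described below, did not call it. Directions below are those between labels. The largest axis of variation, a first principal component with 44.3% of the variance, set knockout 1 and 2 and wild type 3 against knockout 3 and wild type 1 and 2.

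Stretches of sequence before 4 of the genes are shown as a description, and their link to the members' levels was not tested. They come from RefSeq on GRCm38.p6 (the mm10 assembly), where 7 of the 9 genes matched by symbol. Cd79b and Ms4a1 did not. Each is written on the gene's own strand, and each is limited to bases outside annotated exons of that strand. Capitals mark E-boxes, an EBF core and an octamer. The stretches are chr10:75948050-75948299 on the plus strand for Vpreb3, chr16:16863986-16864235 on the minus strand for Igll1, chr7:24897247-24897380 on the plus strand for Cd79a and chr2:101649533-101649782 on the minus strand for Rag1. Those of Vpreb3, Igll1 and Rag1 end at the last base before the RefSeq start, and that of Cd79a ends at position -117, counted back from it. The Vpreb3 stretch lies inside the span of the longer GENCODE gene, which starts upstream at 75943057.
Vpreb3: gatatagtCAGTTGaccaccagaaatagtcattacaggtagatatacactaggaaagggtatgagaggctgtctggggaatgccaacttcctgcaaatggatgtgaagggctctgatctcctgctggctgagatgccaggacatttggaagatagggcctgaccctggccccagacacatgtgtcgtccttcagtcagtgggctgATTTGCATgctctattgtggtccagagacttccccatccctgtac
Igll1: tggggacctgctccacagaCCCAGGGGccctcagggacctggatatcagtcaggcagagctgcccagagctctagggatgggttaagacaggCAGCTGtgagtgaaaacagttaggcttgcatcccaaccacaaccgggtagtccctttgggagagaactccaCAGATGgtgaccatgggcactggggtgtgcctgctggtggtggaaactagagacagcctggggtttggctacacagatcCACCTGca
Cd79a: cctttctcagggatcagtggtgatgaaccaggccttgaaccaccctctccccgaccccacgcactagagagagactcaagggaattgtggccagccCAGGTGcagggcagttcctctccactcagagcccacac
Rag1: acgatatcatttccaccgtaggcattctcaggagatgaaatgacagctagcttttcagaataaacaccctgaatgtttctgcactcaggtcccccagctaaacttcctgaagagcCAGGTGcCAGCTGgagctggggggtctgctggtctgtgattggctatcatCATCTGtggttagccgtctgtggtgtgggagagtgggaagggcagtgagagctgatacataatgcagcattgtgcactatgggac

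Motifs were searched on both strands of the full 250 bases before each start. The E-box CAGNTG, a form bound by E proteins such as the product of Tcf3, occurred before 5 of the 7 genes, Rag1, Cd79a, Vpreb3, Igll1 and Vpreb1. The same letters occurred in 44.8% of all 32851 promoter windows of that length. Rag1 and Igll1 each held 3 of them. In Rag1, 2 lie close together, at positions -135 to -130 and -128 to -123 from the start. The EBF core CCCNNGGG occurred before Igll1 alone, at positions -231 to -224, against 11.8% of all windows. The octamer ATGCAAAT, searched after the sequence had been read, occurred before Vpreb3 alone, on the opposite strand at positions -45 to -38, against 1.60% of all windows. The core TGGGAA, known for Ikaros proteins, was found before Rag1 and Ebf1, against 21.6% of windows, and TATAAA before none of the 7, against 12.4%. A match is a description of letters and not a binding site.

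Per length, the 9 genes covered a wide range, and their order was nearly the same in every library. Cd79b was the highest with a mean of 39.3 TPM, above 65.4% of the genes tested. Cd79a followed with 15.9 TPM, Ms4a1 with 10.8 TPM and Vpreb3 with 7.45 TPM, and these 4 held places 1 to 4 in each of the 6 libraries. Rag1 (3.09 TPM) and Pax5 (2.99 TPM) exchanged places between libraries, so their order was not fixed. Ebf1, at 1.67 TPM, was in place 7 in every library. The surrogate light chain genes were lowest, Igll1 with 0.735 TPM and Vpreb1 with 0.641 TPM, and they exchanged places in wild type 1. As a check of the name, Igll1 and Vpreb1, which define the pre-B cell receptor, were thus the scarcest. Cd79b, Cd79a and Ms4a1, shared with immature and mature B cells, were the most abundant. The order did not follow stage throughout, since Vpreb3, also of precursor B cells, lay above Pax5 and Ebf1 in every library.

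**Figure D1:**
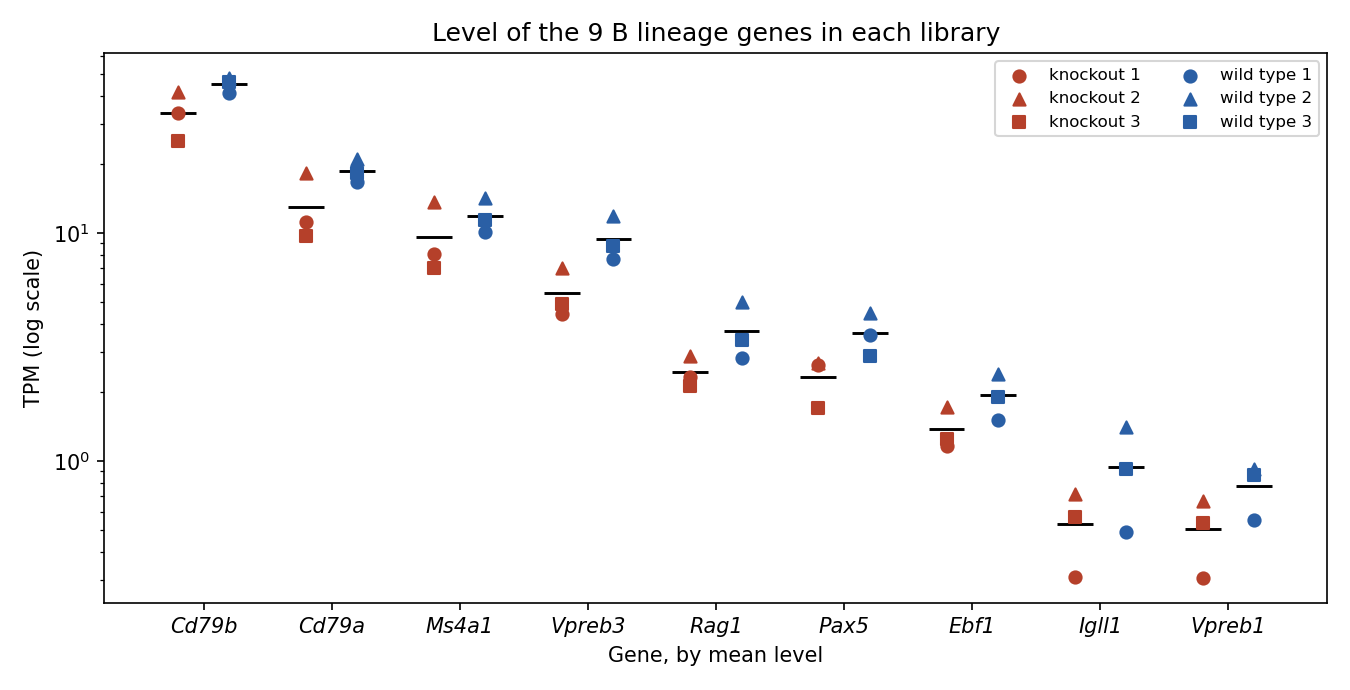
TPM of each of the 9 genes (log axis) in the 3 libraries labelled knockout (red) and the 3 wild-type libraries (blue), with circles, triangles and squares for replicates 1, 2 and 3 and a black line at the group mean. The replicate 2 library is the highest of its group for all 9 genes, and the groups are apart for Vpreb3 and Pax5 only.

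All 9 genes had a lower mean in the libraries labelled knockout, and none passed the test over all genes. The median log2 difference, knockout minus wild type, was -0.57, against 0.00261 over all genes tested. A negative difference was found in 48.9% of those genes. In the limma test 0 of 9 members and 0 of 13722 genes (0%) had a Benjamini-Hochberg adjusted p under 0.05. With no adjustment, 3 members had a p under 0.05, Vpreb3, Pax5 and Cd79b, all lower, against 0.933% of all genes that were lower at that level. This number rests on single libraries: it was 1 without knockout 3 and 1 without wild type 2, 2 without knockout 1 and 2 without wild type 3, and 6 without knockout 2. A second method, limma-voom fitted to whole reads, called 0 members and 0 genes. It gave 5 members and 310 genes an unadjusted p under 0.05, where limma gave 299 genes one. The groups did not overlap for 2 members, Vpreb3 and Pax5, against 2.27% of genes tested that lay lower without overlap. In bulk RNA of this kind, fewer B lineage cells and less RNA per cell cannot be told apart.

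The transcription factors Ebf1 and Pax5 were both low, and they ranked the libraries differently. Ebf1 (mm10 chr11:44618100-45008096, plus strand) had 1.17, 1.73 and 1.25 TPM in knockout 1 to 3 and 1.52, 2.41 and 1.92 TPM in wild type 1 to 3. Knockout 2 lay above wild type 1, so the groups overlapped, and the log2 difference was -0.46 ± 0.23 (SE), or -0.30 without wild type 2. Pax5 (chr4:44531506-44710440, minus strand) had 2.63, 2.69 and 1.71 TPM against 3.56, 4.44 and 2.89 TPM. Its groups were apart, but narrowly: the lowest wild-type value was 1.08 times the highest of the libraries labelled knockout. The log2 difference of Pax5 was -0.62 ± 0.24, with an adjusted p of 1.0 (limma), the adjusted p of each of the 9 genes. Of its 8853 exon bases, 636 are shared with 5730488B01Rik on the opposite strand, which was at 0.0101 TPM on average.

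The surrogate light chain genes lie side by side on the minus strand, Igll1 at chr16:16860671-16863985 and Vpreb1 at chr16:16868401-16869255. Vpreb1 had 7, 14 and 10 reads in knockout 1 to 3 and 9, 22 and 19 reads in wild type 1 to 3. Igll1 had 8, 17 and 12 reads against 9, 38 and 23 reads. Knockout 2 exceeded wild type 1 for both genes, so the groups overlapped. Such numbers are imprecise: the exact Poisson 95% interval of the 7 reads of Vpreb1 in knockout 1 runs from 2.81 to 14.4 reads, and that of the 38 reads of Igll1 in wild type 2 from 26.9 to 52.2 reads. These intervals cover counting error only. On the TPM scale Vpreb1 had 0.503 ± 0.181 against 0.779 ± 0.198 (SD, n = 3 each), and Igll1 0.531 ± 0.204 against 0.939 ± 0.458. The log2 differences were -0.57 ± 0.31 for Vpreb1 and -0.67 ± 0.41 for Igll1. That of Igll1 was -0.36 without wild type 2 and -1.03 without wild type 1, so single libraries set its size. For Vpreb1 it was -0.31 without knockout 1.

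Vpreb2, a near-copy of Vpreb1 on the same chromosome, had 0 reads in the 3 libraries labelled knockout and in wild type 2, and 1 and 2 reads in wild type 1 and 3. For the 4 libraries without a read, the limit set for a count of 0 is 3 reads, or 0.0388 to 0.0495 CPM (reads per library scaled to the same total), where the exact Poisson 95% upper limit is 3.69 reads. The transcripts of Vpreb1 and Vpreb2 agree in 739 of 759 aligned bases, or 97.4%. How reads that fit both were assigned is not given in the sources used here, so the split between them is uncertain. In GENCODE, Vpreb1 also shares 108 of its 1199 annotated exon bases with Top3b on the opposite strand, and whether counting used strand is not stated. By the authors' deposited coordinates the 2 genes do not overlap, since Vpreb1 ends at 16869255 and Top3b starts at 16870891. Top3b had a mean of 30.2 TPM and a log2 difference of -0.01 ± 0.09.

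On the log2(TPM + 0.1) scale Vpreb3 had the largest difference of the 9 genes with all 6 libraries, while Igll1 exceeded it in the ratio of group means (1.77) and in limma-voom (-0.83 against -0.82). At chr10:75948312-75949646 (plus strand), it had 4.43, 7.03 and 4.86 TPM in knockout 1 to 3 and 7.69, 11.9 and 8.76 TPM in wild type 1 to 3. Every wild-type library was above every library labelled knockout, with the lowest at 1.09 times the highest. The means were 5.44 ± 1.39 and 9.45 ± 2.19 TPM (SD, n = 3 each), a 1.74-fold ratio. The log2 difference was -0.79 ± 0.23, and it lay between -0.99 and -0.61 when any single library was left out. The authors' deposited table gives Vpreb3 a log2 fold change of -0.80 with an unadjusted p of 0.0136 and an adjusted p of 1.0.

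The receptor's signalling pair held the 2 highest levels per length. Cd79a (chr7:24897511-24902197, plus strand) had 11.1, 18.3 and 9.75 TPM in knockout 1 to 3 and 16.8, 21.1 and 18.4 TPM in wild type 1 to 3. Knockout 1 and 3 were below all wild-type libraries, and knockout 2 lay among them. Cd79b (chr11:106311341-106314529, minus strand) had 33.8, 41.7 and 25.4 TPM against 41.1, 47.9 and 45.8 TPM, again with knockout 2 inside the wild-type range. With 739 to 1785 reads of Cd79b per library, counting error is small beside this spread. The log2 differences were -0.57 ± 0.24 for Cd79a and -0.44 ± 0.18 for Cd79b. Without knockout 2 they were -0.84 and -0.61, and without knockout 3 they were -0.39 and -0.26.

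Rag1 belongs to the precursor stages, while Ms4a1 appears late in them. Rag1 (chr2:101638252-101649532, minus strand) had 2.33, 2.89 and 2.14 TPM in knockout 1 to 3 and 2.82, 4.96 and 3.38 TPM in wild type 1 to 3. Wild type 2 was well above the rest, and the groups overlapped by a small margin, knockout 2 against wild type 1. Its log2 difference of -0.55 ± 0.24 was -0.33 without wild type 2. GENCODE places B230118H07Rik over Rag1 on the same strand, with 80 of the 6608 exon bases of Rag1 shared. By the authors' deposited coordinates it ends at 101628986, before the span of Rag1. The log2 difference of B230118H07Rik was 0.03 ± 0.11. Ms4a1 (chr19:11250603-11266151, minus strand) had 8.11, 13.7 and 7.05 TPM against 10.1, 14.2 and 11.4 TPM. Its log2 difference was -0.35 ± 0.27, with knockout 2 above 2 of the 3 wild-type libraries. Without knockout 3 that difference was -0.16, and without knockout 2 it was -0.63.

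In the authors' deposited table all 9 genes have a negative log2 fold change, from -0.85 for Igll1 to -0.31 for Ms4a1. None of the 9 is called at an adjusted p under 0.05 there, where 46 of 17382 genes (0.265%) are called in either direction. The table gives 4 members, Vpreb3, Rag1, Cd79b and Cd79a, an unadjusted p under 0.05, against 1.67% of all genes that are lower at that level. These are the same libraries, so the authors' values are not a second measurement.

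The 9 genes varied together from library to library within each group. Knockout 2 was the highest library labelled knockout for all 9, and wild type 2 was the highest of all 6 libraries for all 9. The lowest wild-type library was wild type 1 for 8 genes and wild type 3 for Pax5. The lowest of all 6 was knockout 3 for Cd79a, Cd79b, Pax5, Ms4a1 and Rag1, and knockout 1 for Vpreb1, Vpreb3, Igll1 and Ebf1. Over the 36 pairs of members, Pearson's r of log2(TPM + 0.1) across the 6 libraries had a median of 0.851 and ran from 0.455 to 0.970. The points share libraries and the labelled groups, so r is given as a description. Summed over the 9 genes, the level was 64.2, 89.4 and 53.3 TPM in knockout 1 to 3 and 84.6, 109.3 and 94.4 TPM in wild type 1 to 3. Cd79b gives 47.6% of this sum.

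The differences were also computed on each side of the main axis of variation. Within the side that holds knockout 1 and 2 and wild type 3, all 9 genes were lower in the libraries labelled knockout, by log2 differences from -0.83 for Igll1 to -0.11 for Ms4a1. Within the other side, with knockout 3 and wild type 1 and 2, they were lower as well, from -1.18 for Pax5 to -0.36 for Vpreb1. These are values without a test, since each side holds a single library of one group. Between the sides themselves, the first minus the other, the 9 genes differed by -0.26 to 0.12 on the log2 scale. The sides hold unequal shares of the 2 groups, so these values also carry part of the difference between labels.

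Ratios within a library ask whether the members kept their proportions, and 10 were computed after the levels had been seen. The ratio of Ms4a1 to Cd79a was 0.728, 0.750 and 0.723 in knockout 1 to 3 and 0.604, 0.672 and 0.619 in wild type 1 to 3, without overlap. The ratio of Vpreb3 to Ms4a1 was 0.546, 0.513 and 0.689 against 0.759, 0.838 and 0.768, also without overlap. Both had a two-sided exact permutation p of 0.1, the smallest that 3 against 3 libraries allow, and 0.5 after Benjamini-Hochberg adjustment over the 10 ratios. The other 8 ratios overlapped between the groups. Cd79b to Cd79a was 2.64 ± 0.37 against 2.40 ± 0.12, Igll1 to Vpreb1 was 1.05 ± 0.03 against 1.16 ± 0.33, and Pax5 to Ebf1 was 1.72 ± 0.47 against 1.90 ± 0.42 (SD, n = 3 each). Rag1 to Rag2 was 5.73 ± 1.43 against 6.00 ± 0.40.

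**Figure D2:**
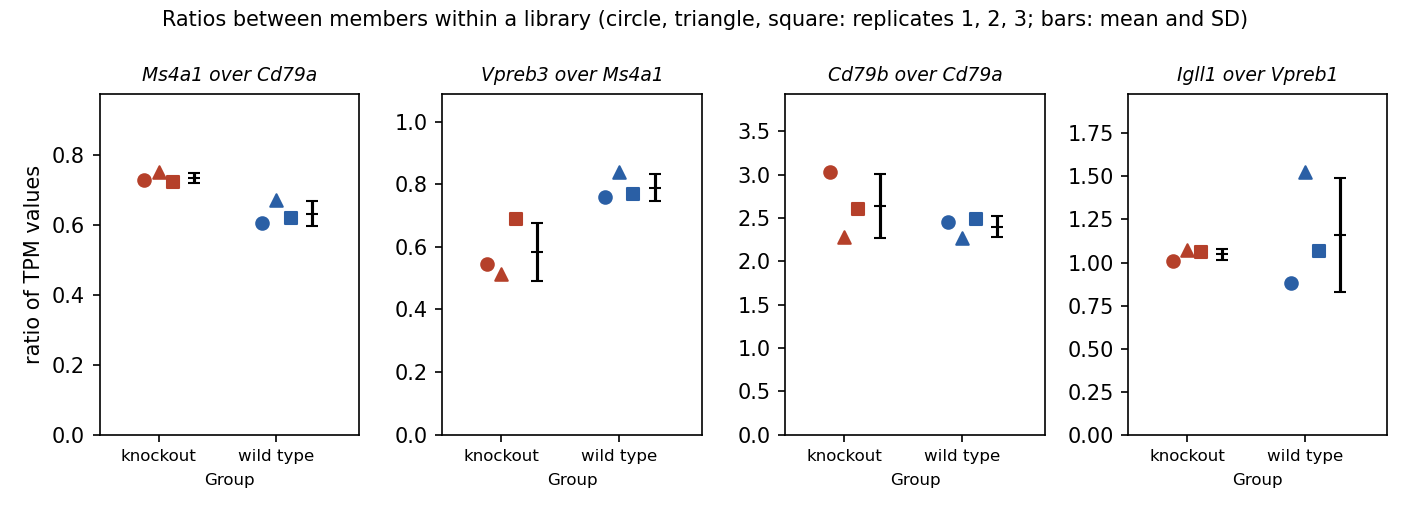
Ratio of TPM values of 2 members within each library, by group, with the mean and SD beside the points and all axes starting at 0. Ms4a1 over Cd79a and Vpreb3 over Ms4a1 do not overlap between the groups (exact permutation p = 0.1 each), while Cd79b over Cd79a and Igll1 over Vpreb1 do.

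Other genes of the lineage came from 7 lists of known B lineage genes, drawn up with earlier results of these data known. Apart from the members, 53 of 58 listed genes are in the table and 51 were tested. None passed in limma over all genes. The log2 difference was negative for 36 and positive for 15, with a median of -0.09. Without adjustment, 9 genes were lower and 0 higher at a p under 0.05, against 0.933% and 1.25% of all genes. The number with such a p was 1 without knockout 3, 2 without knockout 1 and 2 without wild type 2. It was 5 without wild type 1, 5 without wild type 3 and 10 without knockout 2. With single libraries left out, the median ran from -0.22 without knockout 2 to -0.07 without knockout 3. Groups were apart with lower values for 7, against 2.27%, namely Lef1, Bach2, Myb, Blk, Cd24a, Il2ra and Cd55, and with higher values for 1, Ptprc, against 2.84%; these 8 are named after their values were seen.

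All 12 genes of the transcription factor list other than members had a negative log2 difference, with a median of -0.31, and 0 passed. Ikzf1 and Tcf3, factors that many blood cells express, were the most abundant and nearly level, with 64.9 and 28.6 TPM on average and log2 differences of -0.01 ± 0.07 and -0.06 ± 0.11. Spib, a relative of the myeloid and B cell factor PU.1, had 10.9, 16.0 and 11.7 TPM in knockout 1 to 3 and 15.4, 20.6 and 16.7 TPM in wild type 1 to 3. Knockout 2 and wild type 2 were again the highest of their groups, and the log2 difference was -0.46 ± 0.18. Bach2, a repressor that B cells use, differed by -0.60 ± 0.18, and Pou2af1, a B cell coactivator of octamer-binding factors, by -0.55 ± 0.21.

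For genes of receptor signalling, the median log2 difference was -0.03, with 11 of 15 genes negative. The 3 most abundant, Pik3ap1, Lyn and Syk, which myeloid cells also express, had means of 247, 213 and 180.2 TPM and log2 differences of -0.03 ± 0.09, 0.06 ± 0.07 and 0.07 ± 0.18. Blk, a kinase of B cells, was at 2.91, 3.89 and 2.06 TPM against 3.93, 4.92 and 4.36 TPM. Its groups were apart only by 3.89 against 3.93 TPM, and its log2 difference was -0.60 ± 0.24.

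The recombination genes other than Rag1 were scarce. Rag2, its partner, had a mean of 0.531 TPM and a log2 difference of -0.39 ± 0.27. Dntt, which adds bases at heavy chain joints in pro-B cells, had 0.524 TPM and a difference of 0.00 ± 0.23. In the list of precursor surface and growth receptors, 4 of 9 tested genes were negative, with a median of 0.01. Cd93 and Ptprc, also carried by myeloid cells, and Il7r, the interleukin 7 receptor chain, had means of 499.8, 266.2 and 75.3 TPM and differences of 0.01 ± 0.11, 0.14 ± 0.08 and 0.18 ± 0.32. Mme, a surface protease of lymphoid progenitors, had 0 reads in the libraries labelled knockout and 1 read in each wild-type library.

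All 8 mature B cell genes other than Ms4a1 were negative, with a median of -0.28, and 0 passed. Cd37, a tetraspanin of many leukocytes, had 123 TPM and -0.08 ± 0.11, and H2-Ob, part of a class II peptide editor, 3.56 TPM and -0.36 ± 0.34. Of 8 plasma cell genes 3 were negative and 5 positive, with a median of 0.05. Xbp1 had 224.7 TPM and 0.06 ± 0.09, Prdm1 6.89 TPM and 0.14 ± 0.52, and Irf4 6.80 TPM and -0.34 ± 0.20. The difference between the lists was not tested.

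**Figure D3:**
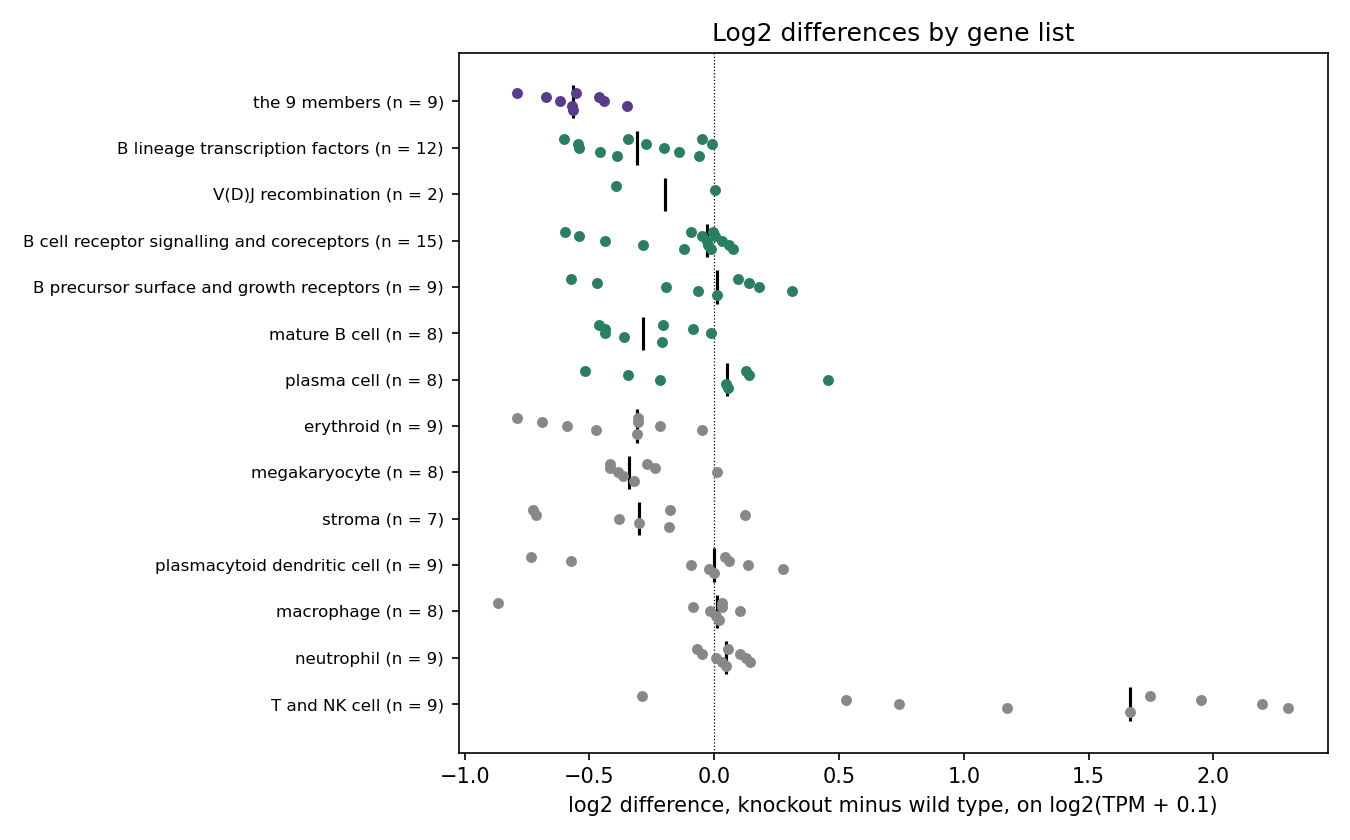
Log2 difference (knockout minus wild type, on log2(TPM + 0.1)) of each tested gene, by list, with the list median as a black line; members appear in the top row only, and genes of 2 lists appear in both. All 9 members lie below 0 with a median of -0.57, and the list of transcription factors has a median of -0.31, while 8 of 9 tested genes of T and NK cells lie above 0.

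Markers of other cells the cultures could hold are given beside the members. The T and NK cell list had 8 of 9 tested genes higher and not overlapping, against 2.84% of all genes, with a median log2 difference of 1.66. Its summed level was 8.37 to 11.8 TPM in the libraries labelled knockout and 5.46 to 6.43 TPM in wild type. Its genes with 0 reads in some library were Cd3e, Gzmb and Ncr1. Cd3e, Il2rb and Gzmb reached 0.1 TPM only in libraries labelled knockout, so the filter fixed their lack of overlap. Lck and Nkg7 reached it in all 6 libraries, and Cd3d, Cd3g and Cd8a in some wild-type libraries. The count is a description and not support for a change. The authors' likelihood ratio test calls Il2rb (adjusted p 2.4e-07), Cd8a, Gzmb, Cd3g and Cd3e (0.0037). It does not call Cd3d, Lck or Nkg7. Apart from Nkg7, these genes are named after their values were seen. Nkg7 and Cd2, the most abundant genes of this list, differed by 0.53 ± 0.19 and -0.29 ± 0.20.

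All 9 tested erythroid genes were negative as well (median -0.31; Hba-a1 and Hba-a2 have the same reads in every library and are 1 measurement under both names), as were 7 of 8 of megakaryocytes (-0.34) and 6 of 7 of stroma (-0.30). Groups were apart with lower values for 3 erythroid genes, 1 of megakaryocytes and 2 of stroma, against 2.27% of all genes tested. Summed levels overlapped between the groups for erythroid cells (41.7 to 75.9 against 65.5 to 111.9 TPM) and megakaryocytes (794 to 1151 against 973 to 1071 TPM). Most of the megakaryocyte sum is Pf4, with a mean of 898.5 TPM and a log2 difference of 0.01 ± 0.16, the only gene of that list that was not lower. For stroma the sums were 35.4 to 39.2 against 48.8 to 68.2 TPM, and its most abundant gene was Vcam1, which macrophages also express. Erythroid genes ranked the libraries otherwise than the B lineage genes did: their sum was highest in wild type 1 and lowest in knockout 2. In the stromal list Dcn and Lum had 0 reads in some library. Plasmacytoid dendritic cells, whose list shares Ly6d with that of B precursors, had 5 of 9 genes negative and a median of -0.002, and neutrophil genes 2 of 9 and 0.045. The macrophage list had 3 of 8 negative and a median of 0.01; its Lyz2 differed by -0.87 ± 0.27. Abundant genes of these lists were as follows, by mean TPM and log2 difference. Hbb-bs had 33.8 TPM and -0.69 ± 0.36, and Hba-a1 15.5 TPM and -0.30 ± 0.26. Ppbp of megakaryocytes had 92.2 TPM and -0.38 ± 0.18. Vcam1 had 27.6 TPM and -0.72 ± 0.24, and Kitl of stroma 17.8 TPM and -0.30 ± 0.33. Bst2 and Tcf4 of plasmacytoid dendritic cells had 433.9 and 28.5 TPM, with 0.27 ± 0.14 and -0.002 ± 0.20. S100a9 and S100a8 differed by 0.14 ± 0.16 and 0.13 ± 0.17. The part of these other cells in the members' differences was not tested.

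**Figure D4:**
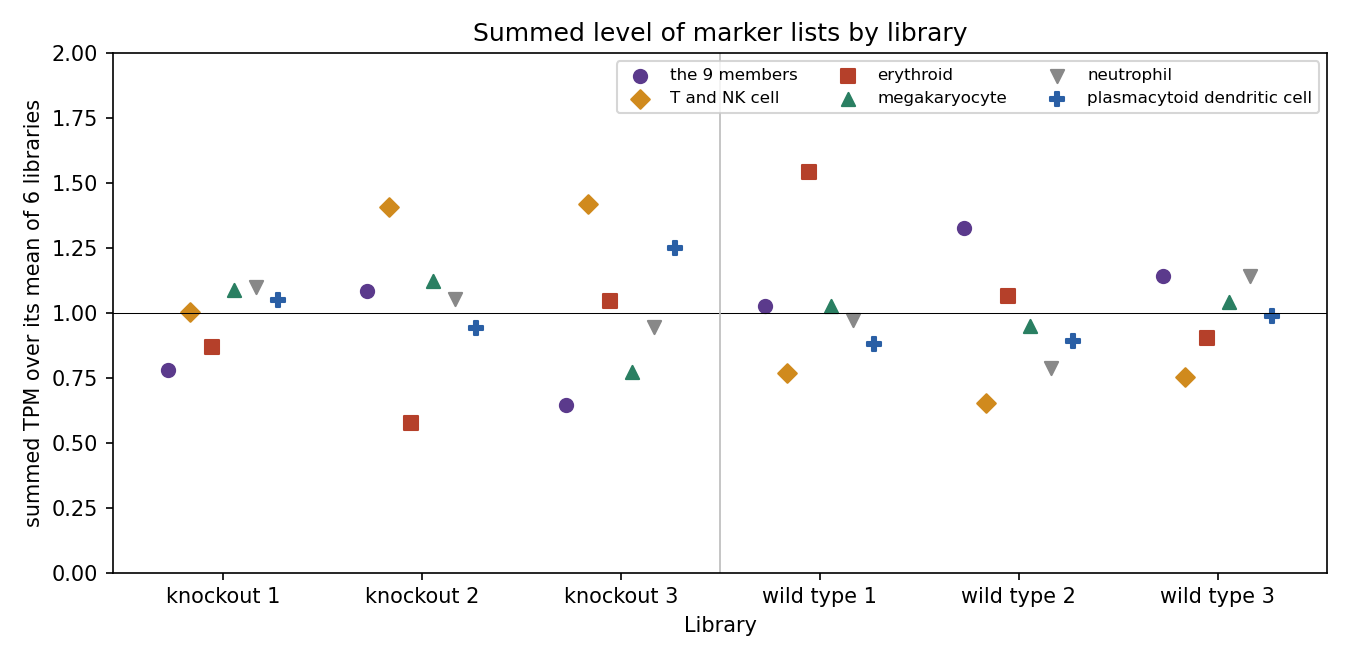
Summed TPM of the 9 genes and of 5 marker lists in each library, each divided by its own mean over the 6 libraries. The 9 genes are highest in wild type 2 (109.3 TPM) and lowest in knockout 3 (53.3 TPM), whereas the erythroid sum is lowest in knockout 2 (41.7 TPM).

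By a fixed rule, 8 genes outside all lists were taken whose pattern over the 6 libraries was most like the mean pattern of the members, among 11560 genes with at least 1 TPM. They were Cpm, Atp1b1, Cecr2, Jakmip1, Fam129c, Dpp4, Treml4 and Xlr, with Pearson's r from 0.942 for Xlr to 0.986 for Cpm. With 6 libraries and so many candidates, such values are a description. Fam129c had 5.59, 7.22 and 5.81 TPM in knockout 1 to 3 and 7.02, 10.6 and 7.66 TPM in wild type 1 to 3, with replicate 2 highest in both groups. Cecr2 had 0.917, 1.49 and 1.02 TPM against 1.31, 2.42 and 1.90 TPM. Log2 differences of the 8 genes ran from -0.66 for Cecr2 to -0.23 for Treml4, and each had an adjusted p of 1.0 (limma). Because the 8 genes were picked for their likeness to the members over the same libraries, their direction and the place of replicate 2 follow from that choice.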

How the data were processed

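Per the submitters' processing notes, the tools were edgeR, featureCounts from Subread, Picard 1.127, TopHat2 2.0.12 and FastQC 0.11.2, with build mm10; roles and counting options are not stated. The authors deposited TPM values, identified by column sums of 1000000 in each library. Per the file headers the table also holds log2 fold changes, a mean CPM in log2, a likelihood ratio (score), p-values and adjusted p-values by the authors. Positive values there mean higher in the libraries labelled knockout.

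Whole reads were recovered from ratios of TPM values between libraries, within 0.01 of a read for 100% of 94034 values above 0; for 427 genes the common factor came from the authors' mean log2 CPM. Gene starts were shifted to count from 1. Genotype was tested with limma 3.58.1 (R 4.3.3, mean-variance trend, two-sided, Benjamini-Hochberg over all tested genes, threshold 0.05) on log2(TPM + 0.1), keeping the 13722 genes that reached 0.1 TPM in 3 or more libraries; a fold on this scale understates low genes. The fit was tested on simulated data. Alternatives were pseudocounts of 1 and 0.01, other filters, another scaling, limma-voom, a replicate block, a term for the first component and leaving out each library.

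The members and lists were chosen with earlier results of these data known. Named genes are the members, Lyz2 and Cd274, up to 3 abundant genes of each B lineage list, 2 of each other list and the 8 most alike; others are said to be named after their values were seen, as are Bach2, Pou2af1, Blk and Mme. Immunoglobulin constant genes were not analysed here, and 1 gene that the rule names is not reported here. Where libraries are not from separate mice, p-values reflect only the spread among these libraries. Intervals cover counting error only.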

Additional observations from a re-analysis of the deposited data

How the results depend on the processing

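Each of the 9 genes was recomputed under up to 14 alternatives, and all 124 values kept a negative log2 difference and an adjusted p over 0.05 (smallest 0.566). Vpreb1 and Igll1 gave no value with the filter of 1 TPM, which they did not pass. The counts of called members, of other B lineage genes, of genes of other cell types and of all genes were 0 in every alternative. The median log2 difference of the members was -0.40 without wild type 2 and -0.73 without knockout 2, the extremes over the 6 left-out libraries. Over all genes tested, same-numbered libraries did not deviate together (r of -0.24, -0.15 and -0.53 across genes for numbers 1, 2 and 3). For the members, however, knockout 2 and wild type 2 were each the highest of their group in 9 of 9 genes. Whether same-numbered libraries were handled together is not stated and was not tested. No library labelled knockout correlated best with the wild-type library of its own number. With the replicate block 0 members and 0 genes were called, and 6 members and 232 genes had an unadjusted p under 0.05. With the term for the sign of the first component, chosen from the values, 4 members and 1042 genes had one, with 0 called. Without wild type 3 there were 1012 such genes, with 2 members among them. Depth limits Vpreb1, Igll1 and Vpreb2, with at most 38 reads in any library.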
